A study of Mus musculus with 6 samples.

Results

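The cells described here are the 143 of 2043 jejunal epithelial cells (72 of 1028 anterior, 71 of 1015 posterior) with the highest lysozyme and defensin score. For each cell the deposited log2 values of Lyz1, Defa17, Defa27 and Defa29 were taken relative to the 5th percentile of that gene among cells of the same amplification pool and averaged, and the top 7% of each region's table were kept. They were proposed as Paneth-like cells. In only 11 of them did Paneth cell RNA make up at least 20% of the UMIs, so the set is called the high-scoring cells. The lowest score inside the set was 2.805 (anterior) and 2.818 (posterior), and the highest outside it 2.776 and 2.8.

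Paneth cells sit at the base of the crypts of the small intestine, between the stem cells, and fill their granules with antimicrobial proteins. Lysozyme cleaves bacterial cell walls, and the alpha-defensins (cryptdins in the mouse) are short cationic peptides that disrupt bacterial membranes and are cut from their precursors by the protease matrilysin. Because these mRNAs are so abundant in a Paneth cell, RNA released from broken cells can add defensin molecules to wells or droplets that hold other cells.

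The cells came from MARS-seq, a plate method in which sorted single cells are lysed in wells and mRNA molecules are counted at the 3′ end by unique molecular identifiers (UMIs). Small intestines of 3 mice aged 120 days, of mixed CD-1:C57BL/6 background, were cut into 12 parts. Part 3 was the anterior and part 7 the posterior jejunum. Cells of villi and of crypts were pooled 1:1, and single EpCAM+ cells that excluded DAPI were sorted. The labels of the 6 samples (anterior and posterior of mouse 1, 2 and 3) name no treatment and no genotype. The recovered UMIs totalled 6675215 in the anterior and 6573443 in the posterior samples, 1640578 to 3157105 per sample. The 2043 cells carried 186 distinct well barcodes, which the 18 pools therefore share. The wells also bear a label of neg or pos whose meaning is not given. It was pos in 57.3% of high-scoring cells, 52.8% of other cells and 6 of the 11 Paneth-rich cells.

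Of the genes that chose the cells, Defa17, Defa27 and Defa29 belong to the alpha-defensins, a family that holds near-identical copies. The sequences below show which copies a short read could confuse. Lyz1 lies at chr10:117287797-117292868 on the minus strand of GRCm38. The defensin genes have 2 exons each and lie in a cluster on chromosome 8, with Defa17 at chr8:21655780-21656735, Defa27 at chr8:21315546-21316481 and Defa24 at chr8:21734494-21735471 on the plus strand, Defa30 at chr8:21134642-21135598 on the plus strand, and Defa29 at chr8:21325887-21327020 and AY761184 at chr8:21702519-21703645 on the minus strand. Shown are the last 90 coding bases before the stop codon, 5′ to 3′, from GENCODE vM21 transcripts of GRCm38, with capitals at bases that differ from Defa24.
Defa24: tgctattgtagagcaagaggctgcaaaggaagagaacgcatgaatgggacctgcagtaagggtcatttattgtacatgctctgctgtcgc
Defa30: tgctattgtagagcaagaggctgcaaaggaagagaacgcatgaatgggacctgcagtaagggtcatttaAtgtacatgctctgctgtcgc
Defa17: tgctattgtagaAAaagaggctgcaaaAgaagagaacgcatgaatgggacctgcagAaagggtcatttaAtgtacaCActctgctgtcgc
Defa27: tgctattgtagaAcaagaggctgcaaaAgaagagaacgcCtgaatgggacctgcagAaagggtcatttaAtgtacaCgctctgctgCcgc
Defa30 differed from Defa24 at 1 of these 90 bases and at 4 of 279 over the whole coding sequence. Defa17 and Defa27 each differed at 7 of the 90, and their coding sequences were 95.7% and 91.0% identical to that of Defa24. Defa29 belongs to a different branch with a coding sequence of 348 bases, and is shown with capitals at the 4 bases that differ from AY761184.
AY761184: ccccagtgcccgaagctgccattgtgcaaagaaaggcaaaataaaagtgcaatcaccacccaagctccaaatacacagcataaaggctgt
Defa29: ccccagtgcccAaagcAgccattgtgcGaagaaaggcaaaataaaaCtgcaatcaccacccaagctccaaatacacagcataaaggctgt
The sources used here do not say how reads that match several copies were counted. Values of Defa24 and Defa30, and of AY761184 and Defa29, are therefore uncertain as single genes, and a change in Defa24, Defa30 or AY761184 is not independent of the genes that chose the cells.

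The high-scoring cells were spread unevenly over the samples. Anterior mouse 1 gave 62 of 568 cells (10.9%, Wilson 95% interval 8.61 to 13.75), anterior mouse 2 gave 2 of 198 (1.01%, 0.277 to 3.61) and anterior mouse 3 gave 8 of 262 (3.05%, 1.555 to 5.91). In the posterior jejunum mouse 1 gave 32 of 511 (6.26%, 4.47 to 8.71), mouse 2 gave 38 of 280 (13.6%, 10.05 to 18.08) and mouse 3 gave 1 of 224 (0.446%, 0.07885 to 2.485). These intervals cover counting error only. Mouse 1 thus held 86.1% of the anterior cells of the set, and mouse 2 held 53.5% of the posterior ones. The rule fixes the share in each region, so the regions were not compared.

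High-scoring cells were shallow. Their median was 1585 UMIs and 442 genes, against 3921.5 UMIs and 827 genes in the other cells, and 31.5% of them held under 1000 UMIs against 8.79% of the other cells. The median depth of the high-scoring cells was 0.315 times that of the other cells in anterior mouse 1, 0.254 times in anterior mouse 3, 0.777 times in posterior mouse 1 and 0.347 times in posterior mouse 2. The 2 cells of anterior mouse 2 and the 1 of posterior mouse 3 went the opposite way, with 13893 to 33002 UMIs. The score divides by the size of the cell, so depth is not independent of the rule and was not tested.

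The share of Paneth RNA split the set into a small and a large part. Summed over 17 Paneth genes (the 4 rule genes, 5 further defensins and 8 other secreted products), Paneth UMIs made up 20.5% to 84.2% of the UMIs of 11 cells, called Paneth-rich here. This limit of 20% was set after the values were seen. It falls in a gap between 13.4% and 20.5%, and none of the 1900 other cells reached it, the highest being 9.67%. A wider gap lay higher up, between 35.2% and 68.5%. In the remaining 132 high-scoring cells the median share was 3.46%, and the 143 together had a lowest value of 1.1%. Other cells had a median of 0.572% and a 90th percentile of 2.18%. The 11 Paneth-rich cells held 90.7% of the Paneth UMIs of the set and 61.3% of those of all 2043 cells, and 5 cells alone held 57.8%.

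**Figure D1:**
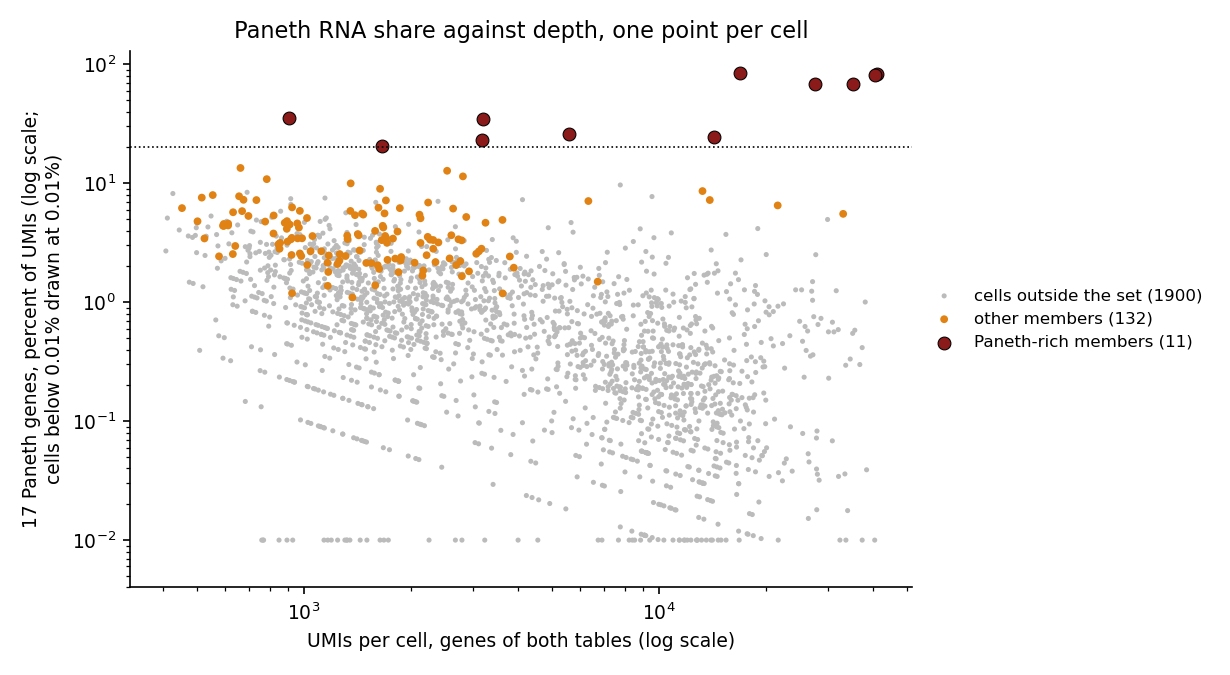
Percent of UMIs from 17 Paneth genes (vertical, log scale) against UMIs per cell (horizontal, log scale) for 2043 cells, with the 20% limit dotted. The 11 Paneth-rich cells (dark red) lie between 20.5% and 84.2%, while the 132 other high-scoring cells (orange) lie among shallow cells outside the set (grey), at a median of 3.46%.

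Among the 11 Paneth-rich cells, 5 had over 60% Paneth RNA and 6 had 20.5% to 35.2%. Those 5 were deep, with 16849 and 27507 UMIs in anterior mouse 1 and 35141, 40532 and 41079 in posterior mouse 1. The 6 others held 906 to 14299 UMIs. By sample, 3 came from anterior mouse 1, 1 from anterior mouse 3, 6 from posterior mouse 1 and 1 from posterior mouse 2, and anterior mouse 2 and posterior mouse 3 had 0.

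The Paneth-rich cells differed in which product led. Defa24 was 18.8% to 58.7% of the Paneth UMIs of a cell. Defa30 ran from 7.48% to 42.8%, and that highest value came from a posterior mouse 1 cell with 14026 Defa30 UMIs and only 408 of Lyz1. Lyz1 was 10.8% to 13.2% of Paneth UMIs in 3 cells and under 5% in the others, with 0 UMIs in a posterior mouse 1 cell that held 352 of Defa29. Defa22, a more distant copy whose coding sequence was 79.2% identical to that of Defa24, made up 8.75% and 9.4% in 2 posterior cells and 0.0286% in an anterior one. High defensin RNA thus came with high or with low lysozyme RNA in single cells.

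**Figure D2:**
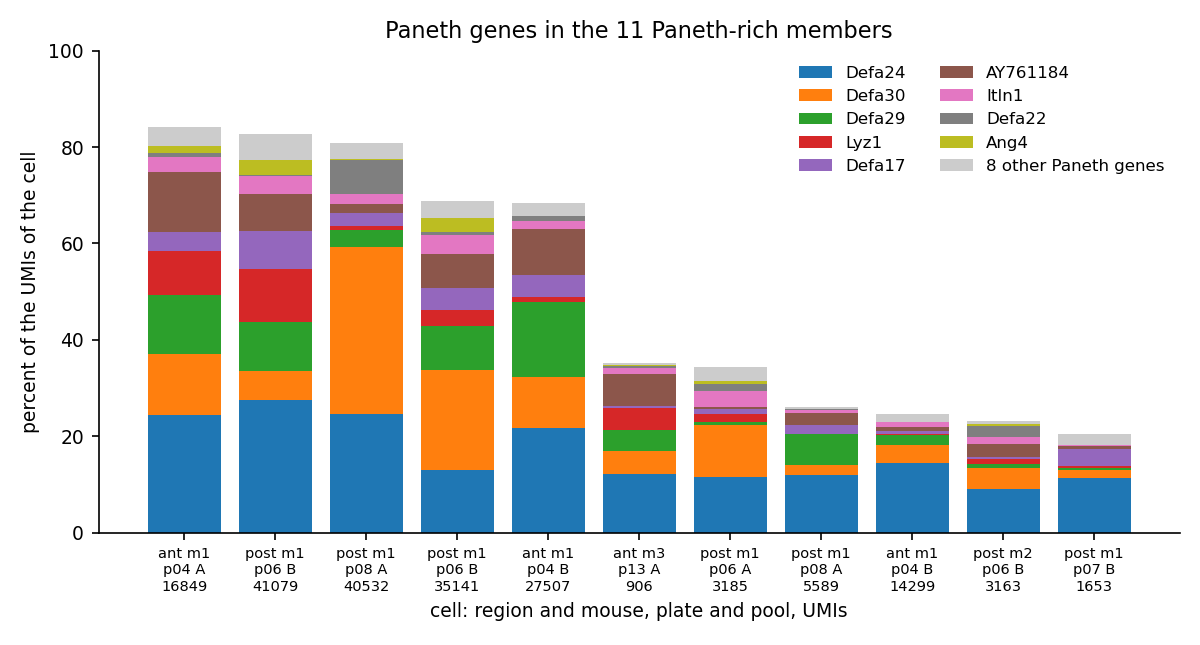
Stacked percent of each cell's UMIs from Paneth genes in the 11 Paneth-rich cells, labelled by region and mouse, plate, pool and UMIs. Defa24 and Defa30 lead in most cells, Lyz1 varies from 0% to 13.2% of the Paneth UMIs, and 5 cells exceed 60%.

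Genes outside the rule that stood highest in the Paneth-rich cells were mostly further secreted products. This is a description, since these cells were chosen on Paneth RNA. Retnlb, a resistin-like protein of the intestine, averaged 133 UMIs per 10000 UMIs of the cell (CP10K) against 1.87 in other cells and was present in 10 of 11, with a median of 61.8 over these cells. Itln1, an intelectin that binds microbial sugars, averaged 202 (median 171) against 4.21 CP10K, and Ang4, an antimicrobial ribonuclease, averaged 79.7 (median 22.1) against 1.89. Mmp7, the matrilysin that processes defensins, averaged 19.6 (median 9.79) against 0.527, and Spink4, a protease inhibitor of secretory cells, 250 (median 166) against 14.9. Clps, a colipase, averaged 65.5 (median 31.8) against 4.9.

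Transcription factors of the lineage were sparse. Xbp1, which drives secretory capacity, had a UMI in 8 of 11 Paneth-rich cells, 18.2% of the 132 remaining high-scoring cells and 35.3% of other cells. Sox9, needed for Paneth cells to form, had a UMI in 3 of 11, in 3.79% and in 8.53%, and Atoh1, the switch to secretory fates, in 2 of 11, in 9.09% and in 7.26%. Median depths behind these shares were 14299, 1444.5 and 3921.5 UMIs, so they cannot be ranked.

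Of the 143 high-scoring cells, 14 had more Paneth UMIs than every cell of their pool outside the set, and 9 of these were Paneth-rich. The 5 others were deep or led by another lineage's genes. The cell of posterior mouse 3 held 1405 Paneth UMIs beside 58.2% of its UMIs in the goblet genes Tff3, Zg16, Muc2 and Fcgbp, and a cell of anterior mouse 2 held 1004 beside 39.4%. Cells of posterior mouse 1 and posterior mouse 2 held 448 and 1139 Paneth UMIs beside 32.9% and 10.5% of these goblet genes. The second cell of anterior mouse 2 held 1825 Paneth UMIs beside 5.34% in the enterocyte genes Apoa1, Apoa4, Fabp1 and Fabp2. A Paneth-rich cell of anterior mouse 1 also combined them, with 24.5% Paneth and 24.8% goblet RNA. No doublet caller was run, and whether such wells held more than 1 cell was not tested.

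In the other 129 cells, which include the remaining Paneth-rich ones, the number of Paneth UMIs was within the range of cells outside the set in the same pool. For 105 of the 143 it was at or below the 90th percentile there. By definition about 90% of the cells outside the set lie at or below it, a larger part than of the high-scoring cells. In anterior mouse 1 plate p03 pool A, 22 high-scoring cells had a median of 40.5 Paneth UMIs and 1073.5 UMIs in all, against 26 Paneth UMIs and 4041 UMIs in other cells. In anterior mouse 3 pool B, the 7 high-scoring cells had a median of 25 Paneth UMIs, fewer than the 36 of other cells, in 922 against 4532.5 UMIs. In posterior mouse 2 pool A the medians were 54.5 and 49.5 Paneth UMIs in 1668.5 and 4896.5 UMIs. Other pools differed more, with medians of 93 and 24.5 Paneth UMIs in posterior mouse 2 pool B and 28 and 13.5 in posterior mouse 1 plate p07 pool A. Over the 10 pools with at least 3 high-scoring cells, their median Paneth UMIs were above those of other cells in 9 and their median depth was below in 9. The ratio of the medians of Paneth UMIs ran from 0.694 to 91.1, with a median of 1.28 and 7 pools at 2 or less. These sums hold the rule genes, so the ratios are a description.

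Paneth molecules were widespread outside the set. At least 1 UMI of the rule genes was found in 77.3% of other cells, and Defa24 in 85.7%, at a median of 3 rule UMIs a cell against 13 in the 132 high-scoring cells that were not Paneth-rich and 471 in the Paneth-rich ones. Thinned to 500 UMIs, Defa24 was found in 95.8% of high-scoring cells, 74.5% of the cells matched to them in depth and 50.6% of other cells. The median Paneth share at this depth was 3.8%, 1.4% and 0.6%, leaving out 1, 6 and 12 shallower cells. Unthinned it was 3.63%, 1.47% and 0.572%. The Paneth share holds the rule genes, and Defa24 is a close copy of one. The higher values of the high-scoring cells thus follow in part from the choice of cells and are a description.

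The share of cells chosen differed between pools. It ran from 0% in 2 pools to 21.9% in posterior mouse 1 plate p06 pool B, where other cells held a median of 65 Paneth UMIs. Pool A of that plate had the highest median in other cells, 98, and 9.47% of its cells were chosen. In both pools of posterior mouse 3 other cells held 4 and 5, and 0.952% or fewer were chosen. Across the 18 pools, Spearman's rho between the percent chosen and the median Paneth UMIs of other cells was 0.91 and Pearson's r was 0.70, given as a description because pools share mice and plates and because these UMIs include the 4 rule genes. With only the Paneth genes outside the rule, whose copies are not independent of it, rho was 0.87 and r 0.66. With the Paneth UMIs held by Paneth-rich cells of the pool rho was 0.32, and with the median depth of other cells −0.13. Paneth-rich cells occurred in 8 pools, and 88 of the 143 cells lay in pools without one. Within pools, Paneth UMIs and total UMIs of other cells had a rank correlation of −0.017 to 0.82, with a median of 0.31. The part of pool-wide Paneth RNA in the choice of the 132 cells was not tested.

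**Figure D3:**
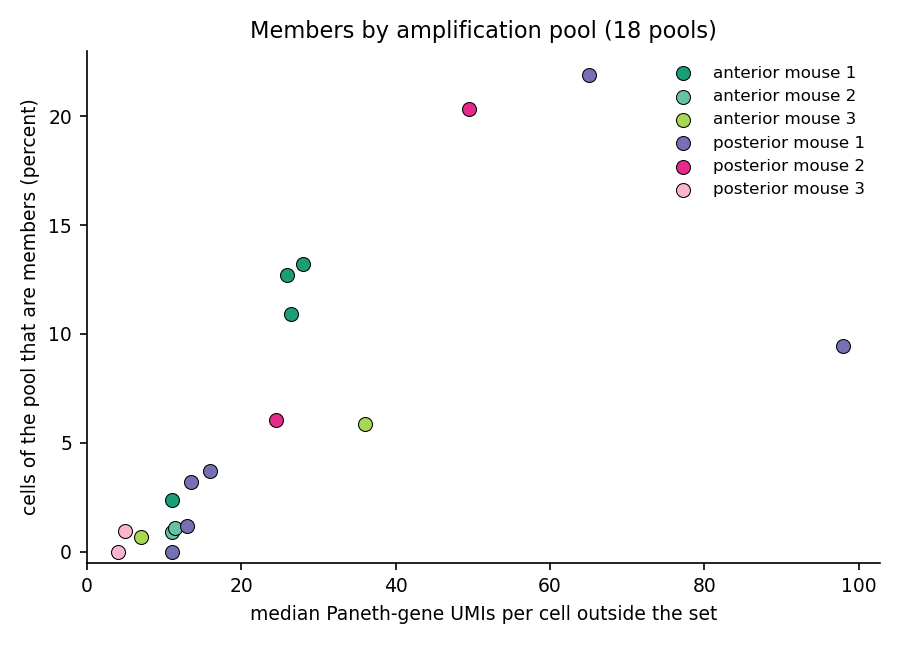
Percent of the cells of each of 18 amplification pools that are high-scoring (vertical) against the median number of Paneth UMIs in the other cells of that pool (horizontal), coloured by sample. Pools with 4 to 16 Paneth UMIs per other cell have 0% to 3.7% chosen cells, and the highest share, 21.9%, stands at 65. The pool furthest right, at 98, has 9.47%.

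The Paneth mix also differed between pools. In other cells the ratio of Defa24 to Defa29 UMIs was 2.85 in anterior mouse 1 plate p04 pool B and 22.0 in posterior mouse 1 plate p06 pool A, and in the Paneth-rich cells of those pools it was 1.76 and 17.6. Over the 8 pools with a Paneth-rich cell, other and Paneth-rich cells differed under 2-fold in this ratio in 5. The exceptions were anterior mouse 1 plate p04 pool A (7.33 in other and 2 in Paneth-rich cells), posterior mouse 1 plate p07 pool B (13 and 31.3) and posterior mouse 2 pool B (4.84 and 11). The ratio of Defa24 to Lyz1 differed under 2-fold in 3 of the 8 pools and by up to 3.5-fold, with 9.73 in other and 27 in Paneth-rich cells of anterior mouse 1 plate p04 pool B.

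To compare expression over samples, mean CP10K of the high-scoring cells was set against that of all other cells of the sample in the 4 samples with at least 5 such cells. The rule genes were left out of the genes tested and of the totals. limma with the sample as a block called 23 of 1801 genes at an adjusted p under 0.05 (1.28%), 13 higher (0.722%) and 10 lower (0.555%). The median log2 change over all genes was −0.275. The 4 samples come from 3 mice, and averaging the regions of a mouse left 6 higher and 0 lower, with 140 genes at an unadjusted p under 0.05.

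Of 27 further alpha-defensins listed, 5 were in both tables. Defa24 had 247 and 249 CP10K in the high-scoring cells of anterior mouse 1 and mouse 3 and 501 and 175 in those of posterior mouse 1 and mouse 2. Other cells of the same samples had 34.9, 23.5, 39.7 and 41.1, so the classes did not overlap and it was higher in 4 of 4 samples (4.94% of all genes tested were). The level of anterior mouse 3 rests on 8 cells. Its 1 Paneth-rich cell, of 906 UMIs, held 111 Defa24 UMIs, against 53 in the 7 others together. The log2 change of Defa24 was 2.98 ± 0.25 (SE, limma adjusted p = 2.02e-08). Defa30 changed by 3.12 ± 0.28, AY761184 by 3.02 ± 0.32 and Defa22 by 2.67 ± 0.38 on the same log2 scale, and all 4 were called higher. Defa24, Defa30 and AY761184 are close copies of rule genes, so their calls are not independent of the choice of cells. Defa35, at 7.46 against 0.651 CP10K, passed the filter of 1 CP10K only through the high-scoring cells and so had to differ, and its change of 2.36 ± 0.49 is a description.

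Of 16 other secreted Paneth products listed, 8 were tested, Mmp7 and Mptx2 passing the filter only through the high-scoring cells, and 2 were called higher. Itln1 had 24.6, 38, 73 and 34.7 CP10K in the 4 samples in the order above, and 3.95, 3.9, 5.3 and 7.42 in other cells. Every sample was higher, and the log2 change was 2.86 ± 0.32 (limma adjusted p = 1.59e-06). Ang4 had 8.78, 3.84, 39.6 and 15.8 against 1.44, 1.57, 2.22 and 4.35 CP10K, a log2 change of 2.24 ± 0.42 (limma adjusted p = 0.00447). Mmp7 reached 1.72 ± 0.53 and did not pass (limma adjusted p = 0.128). Clps (0.89), the pentraxins Mptx2 (0.71) and Mptx1 (0.41), the chemokine Ccl6 (0.06) and the stress gene Nupr1 (0.03) did not pass either. Of 5 Paneth regulators tested (Spdef, Xbp1, Tcf7l2, Cd24a and Rab2a), 0 were called by limma and 0 had an unadjusted p under 0.05, with a median log2 change of −0.0874.

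These calls rested in part on the 11 Paneth-rich cells. Those cells were defined by the summed share of the 17 Paneth genes. Smaller changes of these genes without them follow in part from that choice and are a description. Without them limma called 33 of 1860 genes (1.77%), 10 higher (0.538%) and 23 lower (1.24%, 11 of these ribosomal protein genes), and 6 of the 13 higher genes remained called: Defa24 (log2 change 1.93), Itln1 (2.08), AY761184 (1.88), Defa30 (1.68), Lars2 and Malat1. Defa22 then stood at 0.69 ± 0.51 and Defa35 at 0.93 ± 0.62 (limma adjusted p = 0.643 and 0.601). Ang4 stood at 1.34 (limma adjusted p = 0.162), and Retnlb at 0.05. Spink4 went from 1.20 ± 0.28 with the Paneth-rich cells (limma adjusted p = 0.036) to −0.61 ± 0.43 without them.

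The remaining higher genes were Gm15292, Gm14851, Retnlb, Spink4, Malat1, a nuclear long noncoding RNA, and Lars2, a mitochondrial leucyl-tRNA synthetase. Like Defa35, Gm15292 passed the filter only through the high-scoring cells (6.4 against 0.641 CP10K). Gm15292 and Gm14851 were in none of the Paneth lists used here. In the Paneth-rich cells they averaged 33.7 and 60.2 CP10K, against 0.574 and 2.49 in other cells. Whether they are copies of the rule genes was not tested, so their calls are not taken as independent of the choice of cells. Malat1 had 157, 250, 183 and 205 CP10K against 97.6, 111, 129 and 103 in other cells, a log2 change of 0.84 ± 0.21 (limma adjusted p = 0.0443). It was low in the Paneth-rich cells, at a median of 3.98 CP10K, and high in the 132 others, at 170, with 29.2 in cells outside the set. Lars2 showed the same order, with medians of 0.727, 20.8 and 1.61 CP10K.

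Genes called lower included markers of hormone-secreting enteroendocrine cells and general cell machinery. Of 7 enteroendocrine genes tested 4 were called lower and 0 higher: the hormones Gip (log2 change −2.59) and Sct (−2.08) and the granule proteins Chga (−1.76) and Chgb (−1.63). Gip had 30.3, 0, 0 and 0 CP10K in the order above against 127, 0.867, 20.3 and 0.907 in other cells, so its level came almost wholly from mouse 1. Sct was level in posterior mouse 1, at 22.5 CP10K in both classes. Of 70 ribosomal protein genes with numbered Rpl or Rps symbols, 2 (Rpl41 and Rps13) were called lower and 0 higher, with a median log2 change of −0.819 and 41 lower in 4 of 4 samples, against 16.0% of all genes. With Rplp0, Rplp1, Rplp2 and Rpsa, 3 of 74 were called lower, the third being Rplp0 (log2 change −1.43 ± 0.33). Rpl41 had 23.3, 3.64, 18.1 and 27 CP10K against 50.2, 44.5, 42.1 and 32.6. The other lower genes were Mrpl52 and Ndufa3, both of mitochondria, and the metallothionein Mt2. Mrpl52 passed the filter only through the other cells.

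Goblet genes gave a mixed picture. Of 14 tested, 2 (Retnlb and Spink4) were called higher and 0 lower, with a median log2 change of 0.321. Retnlb was higher in 3 of 4 samples. It had 12, 7.61, 36 and 0 CP10K in the order above, against 2.49, 0.0323, 4.69 and 0.0295 in other cells. Without the Paneth-rich cells the 2 called were Muc2, the gel-forming mucin, and Fcgbp, which binds it, with log2 changes of 0.80 ± 0.18 and 0.82 ± 0.17 (limma adjusted p = 0.00485 and 0.0017). With cells of all samples pooled, the 4 goblet genes Tff3, Zg16, Muc2 and Fcgbp had a median of 9.34% of UMIs in those 132 cells. The median was 1.21% in the Paneth-rich cells, 3.31% in depth-matched cells and 1.33% in all other cells. Samples differed in goblet RNA. In other cells Muc2 averaged 187 and 288 CP10K in anterior and posterior mouse 1. It averaged 44.4 and 38.3 CP10K in anterior mouse 3 and posterior mouse 2. The part of the sample mix in these pooled medians was not tested. Of 19 enterocyte genes limma called 0, with 2 at an unadjusted p under 0.05 and a median log2 change of 0.0857. limma also called 0 of 12 genes of the secretory pathway of the endoplasmic reticulum (median −0.508), 0 of 4 crypt genes (−0.616), 0 of 3 cycling genes (−0.405), 0 of 2 tuft genes (−0.48) and 0 of 9 immediate early and stress genes (−0.0901), with 1 crypt gene and 0 of the others at an unadjusted p under 0.05. Of 12 stem cell genes 5 were in both tables and 0 passed the filter on low levels.

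**Figure D4:**
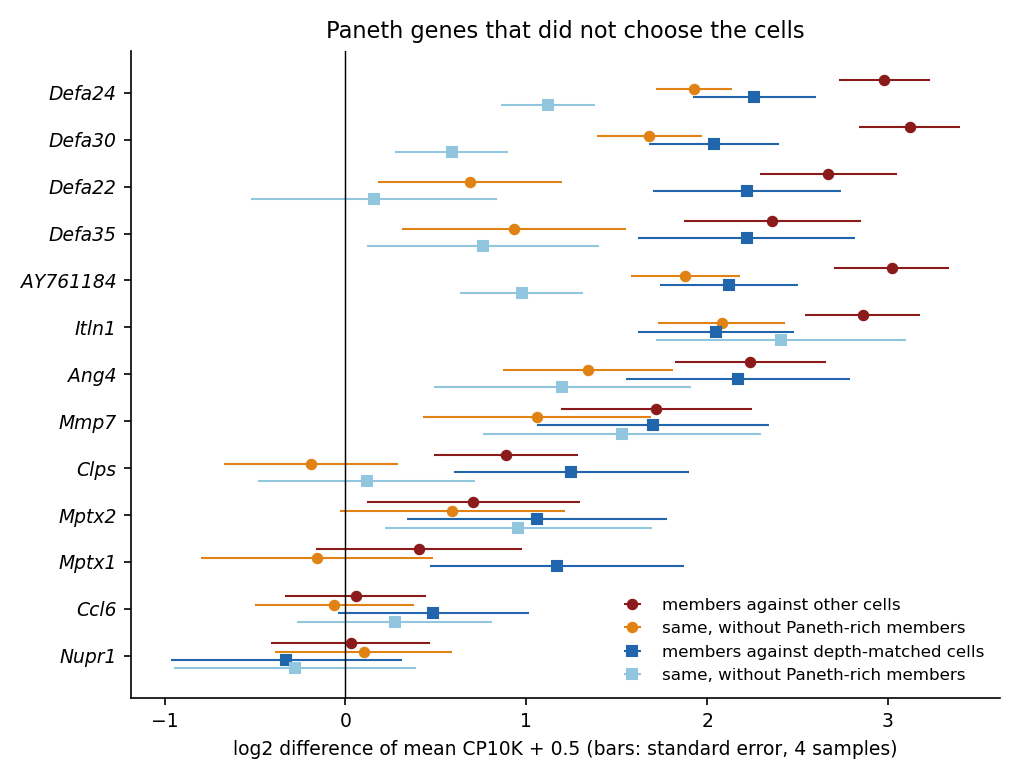
Log2 difference of mean CP10K (pseudocount 0.5) with its standard error over 4 samples for 13 Paneth genes that did not choose the cells, against other cells (circles) and depth-matched cells (squares), with and without the 11 Paneth-rich cells. Defa24 falls from 2.98 against other cells to 1.12 against depth-matched cells without the Paneth-rich cells. Those cells were defined by these genes and the rule genes, so a fall without them is partly built in.

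To hold depth constant, each high-scoring cell was set beside the other cell of its sample nearest in UMIs. The median pair differed 1.004-fold and 2 of 143 pairs differed over 1.5-fold. The pool was not matched. In posterior mouse 1, pools A and B of plate p06 gave 9 and 16 high-scoring cells. Other cells held medians of 98 and 65 Paneth UMIs there, and 11 to 16 in the remaining pools of that sample. The part of the pool in the differences below was not tested. limma then called 3 of 1875 genes (0.16%), all higher, and 0 lower, with 80 at an unadjusted p under 0.05. They were Defa24 (log2 change 2.26 ± 0.34, limma adjusted p = 0.0191), Defa30 (2.04 ± 0.36, limma adjusted p = 0.0376) and AY761184 (2.12 ± 0.38, limma adjusted p = 0.0376), each higher in 4 of 4 samples (3.79% of all genes were). All are close copies of rule genes, so these calls are not independent of the choice of cells. Itln1 missed the threshold (2.05 ± 0.43, limma adjusted p = 0.13). The depth-matched cells had 65.3, 56.9, 35.2 and 76.8 CP10K of Defa24 in the 4 samples, so in 3 samples shallow cells outside the set already exceeded the level of all other cells.

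Apart from these copies nothing was called at matched depth, though several changes were about as large as against other cells. Retnlb stood at 2.56 ± 0.69, Defa22 at 2.22 ± 0.52, Defa35 at 2.22 ± 0.60, Ang4 at 2.17 ± 0.62 and Spink4 at 1.35 ± 0.50, with limma adjusted p of 0.295 to 0.908. Here too Defa35 passed the filter only through the high-scoring cells (7.46 against 0.854 CP10K), so its change is a description. Ribosomal protein genes had a median log2 change of −0.40 with 0 of 70 (0 of 74 with the 4 added) called by limma and 3 at an unadjusted p under 0.05, against a median of −0.13 over all genes. Gip (−1.12 ± 0.61), Chgb (−0.98 ± 0.68), Malat1 (0.17 ± 0.22) and Muc2 (0.41 ± 0.22) had limma adjusted p of 0.908 to 0.921. Without the Paneth-rich cells limma called 0 of 1911 genes, with 67 at an unadjusted p under 0.05. Defa24 then stood at 1.12 ± 0.26 (limma adjusted p = 0.927), still higher in 4 of 4 samples. Defa30 (0.59), AY761184 (0.97), Defa22 (0.16) and Ang4 (1.20) fell as well. Itln1 did not fall and stood at 2.41 ± 0.69 (limma adjusted p = 0.927), higher in 4 of 4 samples. The cells left out were chosen by their Paneth RNA, so these changes are a description.

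**Figure D5:**
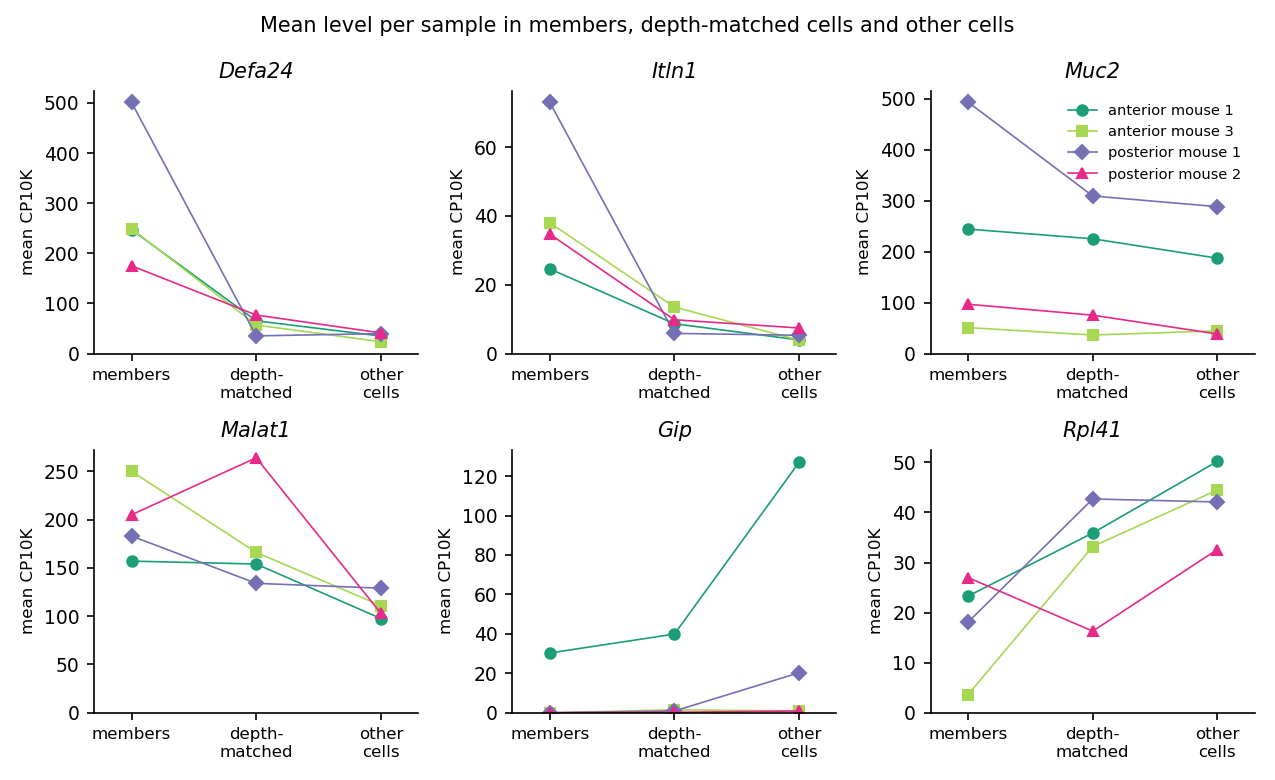
Mean CP10K of 6 genes in the high-scoring, depth-matched and other cells of the 4 samples tested, joined by sample. Defa24 and Itln1 are highest in the high-scoring cells of every sample, whereas Malat1 is at 134 to 264 in the depth-matched and 157 to 250 in the high-scoring cells.

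Between regions no gene was called within the high-scoring cells. With 2 anterior and 2 posterior samples limma called 0 of 1766 genes (0.0%), with 44 at an unadjusted p under 0.05. Defa22 had 7.08 and 4.57 CP10K in the anterior against 35.4 and 29.7 in the posterior samples, and these did not overlap, as was so for 28.8% of genes tested. Its log2 difference was −2.41 ± 0.83 (limma adjusted p = 0.989). Other cells showed the same order, with 0.74 and 0.36 CP10K against 2.89 and 6.58. limma called the contrast of high-scoring with other cells different between regions for 0 of 1801 genes (0.0%), with 75 at an unadjusted p under 0.05, and for Defa22 the difference of contrasts was −0.16 ± 0.81.

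High-scoring cells were also scored for other lineages. With the top 7% of all cells chosen in the same way for other genes, 6 of the 143 (4.2%) were also top goblet cells, 12 (8.39%) top enteroendocrine, 7 (4.9%) top enterocyte, 7 (4.9%) top crypt progenitor and 9 (6.29%) top tuft cells. Sets unrelated to the score would share about 7%. The top enteroendocrine cells held a median of 2 Chga UMIs and the top tuft cells 1 Sh2d6 UMI, against 157 Muc2 UMIs in the top goblet cells. Such low counts do not identify enteroendocrine or tuft cells. Of the immune and stromal markers, the T cell gene Cd8a and the endothelial gene Pecam1 were the only ones in both tables. Cd8a had a UMI in 4.17% of anterior and 4.23% of posterior high-scoring cells, against 8.89% and 6.89% of other cells, and Pecam1 in 9.72% and 16.9% against 18.5% and 16.4%. Plasma cell genes (Igkc, Igha and Jchain, in the anterior table) had a UMI in 33.3% of anterior high-scoring cells and 24% of other cells. Over both regions the median depth was 1585 UMIs in high-scoring and 3921.5 in other cells, so these shares cannot be ranked. No gene of the mitochondrial genome was in the tables, so that sign of cell damage could not be read.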

How the data were processed

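The authors used STAR 2.6.1b, UMI-tools 1.0.0, cutadapt 1.18, bcl2fastq and R 3.5.1 with GRCm38/mm10, per the submitters' processing notes. They deposited 1 table of log2 values per region. Tested on the values, each was log2(UMI/size factor + 1) after a linear correction per gene for pool and 2 covariates. Undoing it gave whole UMIs (to within 0.01) for 100.0% of the entries of either table, and simulated tables of 2000 genes returned 100.0%. The 5674 genes of both tables held 98.0% of UMIs, and all levels use them.

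The members and lists were chosen with earlier results of these data known. For genes averaging at least 1 CP10K, log2(mean CP10K + 0.5) of each class in each sample was tested with limma 3.58.1 (R 4.3.3, eBayes with trend, Benjamini-Hochberg, threshold 0.05); fold changes on this scale understate those of low genes. Samples with under 5 members were left out. The rule genes were left out of tests and totals. For the contrast with other cells, data simulated on 1806 genes recovered 61 of 79 4-fold and 4 of 83 2-fold changes, with 2 false calls. Named genes were the 10 largest changes each way among calls with 1 direction in every sample, every Paneth gene, and up to 4 of each other list. Classes were blocked by sample. Anterior and posterior samples with the same number come from the same mouse, per the labels' titles. p-values measure the spread between samples of 3 mice. Python 3.11.15, numpy 2.4.6, scipy 1.17.1, pandas 2.3.3 and matplotlib were used. The number of unmapped columns was 0. Wells of 0 (72) and 10 (36) cells were not used here.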

Additional observations from a re-analysis of the deposited data

Results flagged for a closer look

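Defensins outside the genes compared above also carried signal. Defa21 and Defa26 were in the posterior table only and so entered no comparison, and both exceeded the 3 UMIs that a count of 0 allows. Defa26 had 359 UMIs in the 71 posterior high-scoring cells, 339 of them in the 7 Paneth-rich ones, and 61 UMIs in the 944 other cells. Defa21 had 160 UMIs in the high-scoring cells, 59 of them in the Paneth-rich ones, and 410 UMIs in the other cells, with means of 9.18 and 1.16 CP10K. The spread of these genes over the 2 classes thus differed, which was not tested.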

How the results depend on the processing

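Against other cells, 13 genes higher and 10 lower became 6 and 0 with pseudocount 0.05, 23 and 397 with no filter on low values, 4 and 0 with no replicate block, 35 and 205 from summed UMIs, and 6 and 0 with both regions of a mouse averaged. Genes lower were 37 for the top 10% of cells, 21 with the score on recovered CP10K, 71 among cells with at least 1000 UMIs, and 23 without Paneth-rich members, an alternative chosen after seeing the data that turned Spink4 to a log2 change of −0.611. Leaving out 1 sample gave 8 to 13 higher and 2 to 17 lower. The fewest of both, 8 and 2, came without posterior mouse 1, and 17 lower came without anterior mouse 3, while 5 came without posterior mouse 2.

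Against depth-matched cells, the 3 genes higher became 0 with pseudocount 0.05, with no filter, with no replicate block, from summed UMIs and without Paneth-rich members, 1 by mouse, 1 in anterior and 7 in posterior samples alone, where 2 were lower against 0. Leaving out 1 sample gave 1 to 11 higher and 0 to 3 lower: 11 and 3 without anterior mouse 3, and 1 and 0 without posterior mouse 1 or posterior mouse 2.

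Between regions 0 genes were called within the high-scoring cells in every setting run. The contrast between regions had 36 higher and 69 lower without anterior mouse 1 and 0 otherwise, with 1 residual degree of freedom. The replicate block by mouse could not be fitted to the 4 samples used, which leave 0 residual degrees of freedom; with the replicate block and all 6 samples it gave 0 calls in both comparisons. The median Paneth share of 3.63% was 4.4% for the top 5% of cells. The cause of these differences was not tested. At a median of 1585 UMIs a cell, absence of a transcription factor was not detectable.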
